A study of Danio rerio with 15 samples.

Results

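The comparison was made over 5 libraries of sf3b1 mutant zebrafish embryos, 3 with constitutively active Stat3 (CA-Stat3 replicates 1, 2 and 3) and 2 with wildtype Stat3 (WT-Stat3 replicates 1 and 2). They were taken by genotype and construct, as the sample titles give them, from 15 libraries in all, and no measured value entered the choice. The other 10 libraries hold non-mutant embryos, 5 of siblings of the mutants and 5 of wildtypes, each with 3 CA-Stat3 and 2 WT-Stat3 libraries. Each library was made from poly(A)-selected RNA of kdrl-positive cells isolated at 28 hours post fertilization. All 5 mutant libraries carry the sf3b1 mutation and an overexpressed Stat3, so the comparison is between 2 forms of Stat3 and includes no mutant without added Stat3. The labels do not state the sf3b1 allele, the genotypes pooled as siblings, the promoter or delivery of the constructs, or the number of embryos or clutches per library. Nothing states that the libraries came from separate clutches, so a p-value reflects only how far these libraries scatter, and that scatter may in part be technical.

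Sf3b1 is a core subunit of the U2 small nuclear ribonucleoprotein, which recognises the branch site of introns during splicing. Stat3 is a transcription factor that Janus kinases phosphorylate downstream of cytokine receptors of the gp130 family. In its active form it enters the nucleus and switches on target genes such as SOCS3, whose product inhibits the kinases in a feedback loop. In the zebrafish embryo, kdrl marks endothelium, including the haemogenic endothelium of the dorsal aorta from which blood stem cells emerge. The comparison asks what constitutive Stat3 activity changes in these cells when Sf3b1 is mutant.

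The 5 mutant libraries did not fall into 2 clean groups. Total counts were 6506853, 5182859 and 5492892 in CA-Stat3 replicates 1, 2 and 3, against 4537227 and 3625121 in WT-Stat3 replicates 1 and 2, and all 15 libraries spanned 3625121 to 8170371. The most abundant row, zgc:158463, took 19.9%, 23.7% and 20.6% of counts in the CA-Stat3 libraries, against 23.4% and 39.5% in the WT-Stat3 libraries. WT-Stat3 replicate 2 also had the fewest genes with any count, 18512, and after every library was thinned to its total the other mutant libraries still held between 20870 and 22200.

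Distances between libraries were taken over 9418 genes with an average of at least 3 on the log2 scale of CPM (counts per 1e6 scaled library counts, by trimmed mean of M-values). The standard deviation (SD) of the log2 difference was 0.55, 0.53 and 0.40 between CA-Stat3 libraries. Between the CA-Stat3 libraries and WT-Stat3 replicate 1 it was 0.55, 0.43 and 0.39, no larger than among the CA-Stat3 libraries themselves. WT-Stat3 replicate 2 stood apart from all 4 others, at 0.88, 0.76 and 0.75 from the CA-Stat3 libraries and 0.73 from its own replicate, where 12.2% of these genes differed more than 2-fold. Because the pair of WT-Stat3 libraries differed this much, every value below is given per library, in the order replicates 1, 2 and 3 for CA-Stat3 and 1 and 2 for WT-Stat3.

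**Figure D1:**
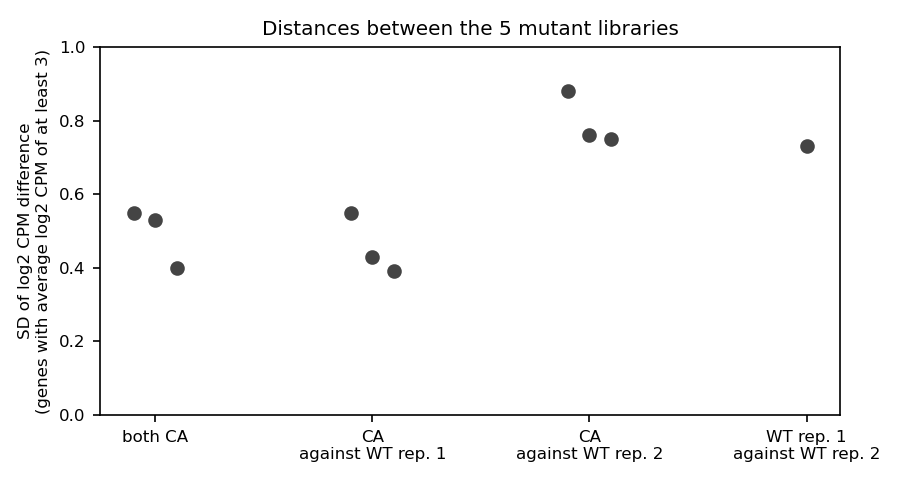
Distance between pairs of mutant libraries: the y axis is the SD of the log2 CPM difference over 9418 genes, and each point is 1 pair, grouped along the x axis by which libraries it joins. Pairs of CA-Stat3 libraries and pairs with WT-Stat3 replicate 1 lie between 0.39 and 0.55, while pairs with WT-Stat3 replicate 2 lie between 0.73 and 0.88.

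No gene passed the test of CA-Stat3 against WT-Stat3 within mutants. Of 18020 genes tested with edgeR's quasi-likelihood test, 0 (0%) had an adjusted p under 0.05 (Benjamini-Hochberg), and the smallest adjusted p was 0.368. At an unadjusted p under 0.05 there were 1845 genes (10.2%), of which 1097 (6.09%) were higher and 748 (4.15%) lower in CA-Stat3. The voom fit of limma also called 0 genes, and DESeq2 called 63, of which 48 were higher and 15 lower. Of the DESeq2 calls, 38 were cytosolic ribosomal protein genes, all higher, and 6 were small non-coding RNAs, all lower. Below, called means called by edgeR unless DESeq2 is named. The count depended on which WT-Stat3 library was kept: without replicate 1, leaving replicate 2 as the only WT-Stat3 library, 536 genes were called (412 higher, 124 lower), and without replicate 2 none was, with a smallest adjusted p of 0.999. Each of these fits takes the spread of the single WT-Stat3 library from the other groups. The 533 genes among those tested that were called against replicate 2 had a median absolute log2 fold change of 1.65 against it and of 0.29 against replicate 1.

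As edgeR called no gene, groups of genes are described by non-overlap: a gene lay above when all 3 CA-Stat3 libraries exceeded both WT-Stat3 libraries in CPM, and below in the opposite case. Over all genes tested, 2410 (13.4%) lay above and 1995 (11.1%) below, and these shares are the background for each list. The median log2 fold change of all genes tested was 0.03. With 3 against 2 libraries an exact permutation test of one gene cannot go below a two-sided p of 0.2, so single genes carry the statistics of the fit over all genes.

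Of the lists examined, subunit lists aside, the one with the largest share on 1 side was that of the cytosolic ribosome. This particle translates messenger RNA. Of 81 cytosolic ribosomal protein genes tested (of 83 in the table), 72 (88.9%) lay above and 0 below, and 9 overlapped. Their median log2 fold change was 0.62, with a range of -0.14 to 1.49. None was called by edgeR, where 66 had an unadjusted p under 0.05, all of them higher in CA-Stat3. DESeq2 called 38 of the 81, among these RPS28 (DESeq2 adjusted p = 0.00718) and RPL12, RPL35, RPL36AL and RPS18 (each 0.0118). The large and the small subunit did alike, with 40 of 46 and 32 of 35 genes above and medians of 0.61 and 0.64. This list was drawn up after its values had been seen, so its counts describe these libraries. A broader ribosomal list, written earlier, had 74 of 92 genes (80.4%) above and 2 below, with a median of 0.58. It too was written with earlier results of these data known, so it is not separate support.

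RPS28, a protein of the small subunit near the messenger RNA channel, had 309, 342 and 302 CPM in the CA-Stat3 libraries, against 192 and 104 CPM in the WT-Stat3 libraries. The CA-Stat3 libraries were close together and WT-Stat3 replicate 2 was the lowest, a log2 fold change of 1.1 ± 0.25 (SE; unadjusted p = 0.000418, edgeR adjusted p = 0.368). RPS18, another small-subunit protein, had 364, 377 and 375 CPM in the CA-Stat3 libraries, against 248 and 138 CPM in the WT-Stat3 libraries (log2 fold change 0.94 ± 0.22). For RPS26 (ENSDARG00000030408) the values were 92.2, 88.7 and 75.4 CPM in the CA-Stat3 libraries, against 50.7 and 43.6 CPM in the WT-Stat3 libraries (0.85 ± 0.20). Here the WT-Stat3 libraries lay near each other and both were low.

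In the large subunit, RPL12, part of the stalk base where translation factors bind, had 255, 242 and 198 CPM in the CA-Stat3 libraries, against 152 and 123 CPM in the WT-Stat3 libraries (0.75 ± 0.18). RPL35 had 282, 294 and 257 CPM in the CA-Stat3 libraries, against 178 and 114 CPM in the WT-Stat3 libraries (0.92 ± 0.23). RPL36AL had 185, 179 and 170 CPM in the CA-Stat3 libraries, against 110 and 66.9 CPM in the WT-Stat3 libraries (1.0 ± 0.25). All 3 genes had the same order, with replicate 1 of WT-Stat3 between its own replicate and the CA-Stat3 libraries. The members that overlapped included RPL3, RPL8, RPL10A, RPL22L1, RPLP0, rps3, rps11l and RPSA2, singled out after their values were seen. RPLP0, the stalk protein, had 730, 913 and 660 CPM in the CA-Stat3 libraries, against 689 and 1006 CPM in the WT-Stat3 libraries. RPL3, at the peptidyl transferase centre, had 925, 1021 and 816 CPM in the CA-Stat3 libraries, against 858 and 993 CPM in the WT-Stat3 libraries. In both genes the groups were interleaved.

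Most ribosomal genes were lower in each WT-Stat3 library than in all CA-Stat3 libraries, by less in replicate 1. Each count of genes below describes 1 library, so its genes are not replicates of the construct. Replicate 1 lay below all 3 CA-Stat3 libraries for 75 of the 81 genes (24% of all genes tested), and so did replicate 2 for 75 (38.3% of all genes tested). The median log2 fold change was 0.41 against replicate 1 only and 0.86 against replicate 2 only, beside 0.05 and 0.17 over all genes tested. The summed level of the 81 genes was 25710, 28690 and 23790 CPM in the CA-Stat3 libraries, against 20220 and 15970 CPM in the WT-Stat3 libraries. The CA-Stat3 sums lay inside the range of the 10 non-mutant libraries, 22990 to 29280 CPM, and both WT-Stat3 sums lay below that range. Gene by gene, WT-Stat3 replicates 1 and 2 were below all 10 non-mutant libraries for 70 and 76 of the 81 genes, while the CA-Stat3 libraries were so for 8, 8 and 21. RPL12 was low in every mutant library, since its lowest non-mutant value was 304.2 CPM. Of all genes tested, 20.3% and 31.8% lay below all 10 non-mutant libraries in the WT-Stat3 libraries, and 16.7%, 21.6% and 20.1% in the CA-Stat3 libraries. Above all 10 lay 3, 28 and 4 of the 81 genes in the CA-Stat3 libraries, against 19.4%, 23.3% and 22.2% of all genes tested. The CA-Stat3 libraries thus differed among themselves, with replicate 2 the highest. In the WT-Stat3 libraries 0 and 2 of the 81 lay above, against 22.0% and 25.2% of all genes tested.

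**Figure D2:**
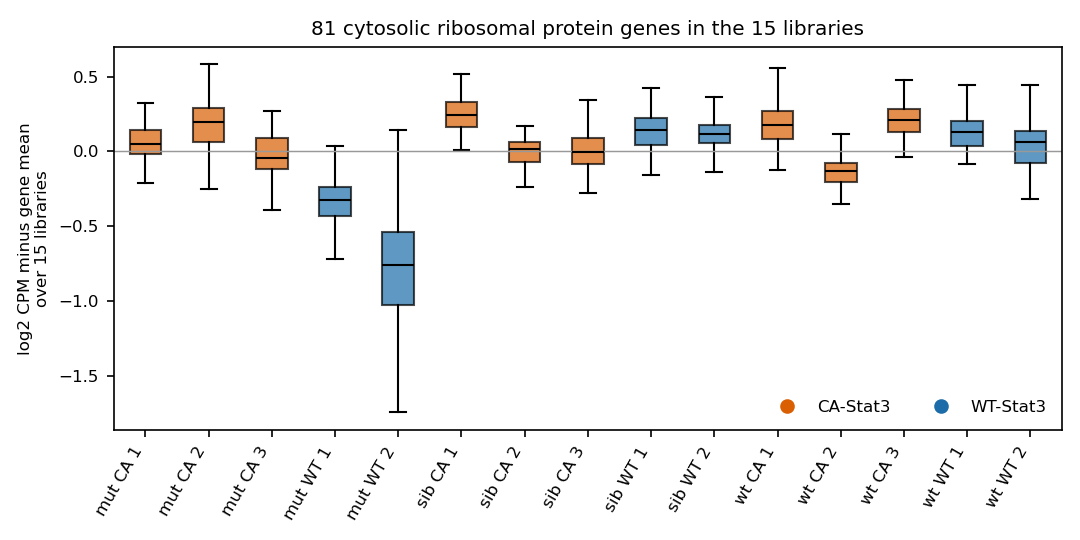
Level of 81 cytosolic ribosomal protein genes in each of the 15 libraries: the y axis is the log2 CPM of a gene minus its mean over the libraries, and the x axis gives genotype (mut, mutant; sib, sibling; wt, wildtype), construct and replicate. Boxes span the quartiles with the median as a line, whiskers reach 1.5 times the box at most; the medians are 0.05, 0.20 and -0.05 in mutant CA-Stat3, against -0.33 and -0.76 in mutant WT-Stat3.

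In non-mutant embryos the same genes had a median log2 fold change of CA-Stat3 against WT-Stat3 close to 0, -0.04 in siblings and 0.00 in wildtypes. The difference between the fold change in mutants and the mean of those in siblings and wildtypes (the interaction) had a median of 0.60 over the 81 genes. No interaction was called, and 57 of the 81 had an unadjusted p under 0.05, all 57 positive, against 6.89% of all genes tested (1242 genes, 726 positive, 4.03%). RPS28 had an interaction of 1.22 on the log2 scale (unadjusted p = 0.000854) and RPL12 of 0.88 (unadjusted p = 0.000845).

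Small non-coding RNAs of the nucleus and cytoplasm went the other way. These RNAs act in splicing, in transfer and ribosomal RNA processing, in protein targeting and in control of transcription, and most carry no poly(A) tail, which poly(A) selection would retain. Of 67 tested (of 875 in the table), 25 (37.3%) lay below and 2 above, with a median log2 fold change of -0.88. The filter asks for enough counts in as few as 2 libraries, so a row could pass through the 2 WT-Stat3 libraries where it is high. How far this shaped the share below was not tested. None was called by edgeR, where 31 had an unadjusted p under 0.05 and a lower level. DESeq2 called 6 of the 67 lower, among these rn7sk (DESeq2 adjusted p = 0.00718) and rmrp, rpph1 and U2 (each 0.0133). The median was -0.35 against WT-Stat3 replicate 1 only and -1.25 against replicate 2 only, so most of its size came from 1 library. This list too was drawn up after its values were seen, and near-identical copies of these genes make single counts uncertain.

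The RNA rn7sk, which holds the elongation factor P-TEFb inactive, had 2423, 2559 and 2309 CPM in the CA-Stat3 libraries, against 3352 and 4438 CPM in the WT-Stat3 libraries (log2 fold change -0.68 ± 0.16, unadjusted p = 0.000467). rpph1, the RNA of ribonuclease P, had 241, 267 and 260 CPM in the CA-Stat3 libraries, against 334 and 658 CPM in the WT-Stat3 libraries (-0.95 ± 0.23). The CA-Stat3 values of both were tight, and replicate 2 of WT-Stat3 was the highest. rmrp, the RNA of ribonuclease MRP, had 446, 502 and 391 CPM in the CA-Stat3 libraries, against 587 and 1169 CPM in the WT-Stat3 libraries (-0.98 ± 0.25). A U2 spliceosomal RNA row (ENSDARG00000082321) had 190, 188 and 277 CPM in the CA-Stat3 libraries, against 304 and 678 CPM in the WT-Stat3 libraries (-1.17 ± 0.30). rn7sl1, the RNA of the signal recognition particle, had 18720, 27920 and 19730 CPM in the CA-Stat3 libraries, against 24990 and 47090 CPM in the WT-Stat3 libraries. Here CA-Stat3 replicate 2 exceeded WT-Stat3 replicate 1, so the groups overlapped. Summed over the 67 rows the level was 33470, 50520 and 40000 CPM in the CA-Stat3 libraries, against 48220 and 94200 CPM in the WT-Stat3 libraries, and 32080 to 41160 CPM in the non-mutant libraries. WT-Stat3 replicate 2, with the highest of these sums, also had the highest share of zgc:158463 and the lowest ribosomal protein sum. Among the others the sums did not keep this order: CA-Stat3 replicate 2 had the highest ribosomal protein sum and the next highest non-coding sum. Of the latter, 50520 CPM, rn7sl1 alone made up 27920 CPM. The median over the 67 rows, as log2 deviation from the mean of the mutant libraries, was ordered otherwise. It was -0.44, -0.16 and -0.19 in the CA-Stat3 libraries, against 0.08 and 0.88 in the WT-Stat3 libraries. Whether the non-coding level or zgc:158463 had a part in the ribosomal result was not tested.

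Other housekeeping groups leaned in the direction of the ribosomal genes, less completely. Of 73 mitochondrial ribosomal protein genes, 30 (41.1%) lay above and 1 below (median log2 fold change 0.49). Of 93 nuclear genes of the respiratory chain and ATP synthase, 37 (39.8%) lay above and 3 below (median 0.53), and of 41 proteasome genes 19 (46.3%) lay above and 0 below (median 0.44). Against WT-Stat3 replicate 1 only these medians were 0.35, 0.26 and 0.25, and against replicate 2 only 0.79, 0.71 and 0.72. Neither edgeR nor DESeq2 called a gene of these lists, which were also drawn up after the values were seen. The gene cox6c, a subunit of cytochrome c oxidase, had 27.7, 32.5 and 27.3 CPM in the CA-Stat3 libraries, against 18.1 and 10.8 CPM in the WT-Stat3 libraries (0.99 ± 0.24). PSMA3, in the outer ring of the proteasome core, had 81.9, 87.2 and 88.6 CPM in the CA-Stat3 libraries, against 59.1 and 31.7 CPM in the WT-Stat3 libraries (0.91 ± 0.23). mrpl52, of the mitochondrial large subunit, had 7.06, 7.48 and 5.90 CPM in the CA-Stat3 libraries, against 2.49 and 1.05 CPM in the WT-Stat3 libraries (1.86 ± 0.46). In all 3, WT-Stat3 replicate 1 was nearer to the CA-Stat3 libraries than replicate 2 was.

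The position of these groups against non-mutant embryos was not that of the cytosolic ribosome, except in part in WT-Stat3 replicate 2. The CA-Stat3 libraries lay above all 10 non-mutant libraries for 46, 62 and 46 of the 73 mitochondrial ribosomal genes, and WT-Stat3 replicates 1 and 2 did so for 35 and 19. For the proteasome genes the corresponding counts were 13, 29 and 16 of 41 in the CA-Stat3 libraries, against 8 and 4 in the WT-Stat3 libraries. For the respiratory chain genes they were 30, 57 and 40 of 93 in the CA-Stat3 libraries, against 15 and 20 in the WT-Stat3 libraries. Over all genes tested, 19.4%, 23.3% and 22.2% lay above all non-mutant libraries in the CA-Stat3 libraries, against 22.0% and 25.2% in the WT-Stat3 libraries. WT-Stat3 replicate 2 was thus near that background for the mitochondrial ribosomal genes (26.0%) and under it for the proteasome genes (9.76%). For the proteasome genes replicate 1 was near it (19.5%). Below all 10 non-mutant libraries, replicate 1 lay for 4 mitochondrial ribosomal, 12 respiratory chain and 6 proteasome genes (20.3% of all genes tested). Replicate 2 did so for 20 (27.4%), 39 (41.9%) and 23 (56.1%), against 31.8% of all genes tested. In replicate 2 the respiratory chain and proteasome genes thus leaned to the side of the cytosolic ribosome. Of 66 translation initiation and elongation factor genes, 20 (30.3%) lay above and 5 below, with a median of 0.24, and 0.14 against WT-Stat3 replicate 1 only. eef1da, a subunit of the elongation factor that reloads eEF1A, had 69.0, 82.7 and 59.9 CPM in the CA-Stat3 libraries, against 46.9 and 36.6 CPM in the WT-Stat3 libraries (0.75 ± 0.19). EIF2S2 had 230, 260.5 and 235 CPM in the CA-Stat3 libraries, against 190 and 76.0 CPM in the WT-Stat3 libraries (DESeq2 log2 fold change 0.84, DESeq2 adjusted p = 0.0389, not called by edgeR). Most of that difference lay in WT-Stat3 replicate 2.

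Among 139 spliceosome genes, 32 (23.0%) lay above and 5 (3.6%) below, with a median log2 fold change of 0.23, which was 0.08 against WT-Stat3 replicate 1 only, 0.42 against replicate 2 only and 0.13 without CA-Stat3 replicate 2. SNRPD1, a core Sm protein of the spliceosomal particles, had 56.8, 72.2 and 73.2 CPM in the CA-Stat3 libraries, against 43.3 and 36.6 CPM in the WT-Stat3 libraries (0.75 ± 0.20). SNRPF, another core Sm protein, had 281, 440 and 330 CPM in the CA-Stat3 libraries, against 243 and 124 CPM in the WT-Stat3 libraries (0.93 ± 0.26, DESeq2 adjusted p = 0.018). The targeted gene itself did not separate the constructs: SF3B1 had 108, 92.3 and 82.0 CPM in the CA-Stat3 libraries, against 93.3 and 105 CPM in the WT-Stat3 libraries (-0.08 ± 0.16). As both groups are mutant, this row does not check the labels of this comparison.

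The STAT3 row had 337, 195 and 252 CPM in the CA-Stat3 libraries, against 244 and 380 CPM in the WT-Stat3 libraries, a log2 fold change of -0.25 ± 0.34 with interleaved groups. Reads of an introduced stat3 transcript would be counted in the same row wherever its sequence matches the gene, so this row does not tell the 2 constructs apart.

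Most direct readouts of the pathway were near the background. Of 52 genes listed as STAT3 targets, 7 (13.5%) lay above and 5 (9.62%) below, with a median log2 fold change of 0.09, and neither edgeR nor DESeq2 called one. The median was 0.00 against WT-Stat3 replicate 1 only and 0.39 against replicate 2 only. SOCS3 (ENSDARG00000026611), the feedback inhibitor that Stat3 induces, had 130, 77.1 and 83.5 CPM in the CA-Stat3 libraries, against 67.3 and 56.5 CPM in the WT-Stat3 libraries. All CA-Stat3 libraries lay above both WT-Stat3 libraries, replicate 1 well above the rest (0.65 ± 0.24, unadjusted p = 0.0141, edgeR adjusted p = 0.397). The second SOCS3 gene (ENSDARG00000025428) had 7.64, 7.69 and 13.6 CPM in the CA-Stat3 libraries, against 10.4 and 3.14 CPM in the WT-Stat3 libraries, and its groups overlapped. nfil3-5, of the NFIL3 family of leucine zipper transcription factors, had 17.9, 14.3 and 16.8 CPM in the CA-Stat3 libraries, against 9.51 and 6.62 CPM in the WT-Stat3 libraries (1.0 ± 0.29, unadjusted p = 0.00335). Its CA-Stat3 values were close together and above both WT-Stat3 values. PIM1, CEBPB, mcl1b and both JUNB genes, further known targets in mammals, overlapped between the constructs.

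Along the pathway, ligands came first: of 11 genes of the gp130 cytokine family and related ligands tested, 2 lay above and 0 below. One was clcf1, a ligand of the ciliary neurotrophic factor receptor, with 27.2, 5.56 and 5.16 CPM in the CA-Stat3 libraries, against 2.49 and 0.35 CPM in the WT-Stat3 libraries (3.01 ± 1.13, unadjusted p = 0.0165). The other was crlf1a, whose mammalian product is secreted as a complex with Clcf1, with 68.0, 28.9 and 34.3 CPM in the CA-Stat3 libraries, against 23.3 and 19.2 CPM in the WT-Stat3 libraries (1.04 ± 0.57). In both, CA-Stat3 replicate 1 was far above the other 2 CA-Stat3 libraries, and replicate 1 was the highest library in each of the 6 groups of the study. Without CA-Stat3 replicate 1 the median log2 fold change of the ligands was -0.12, against 0.45 with it.

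Of 24 cytokine receptor genes, 4 (16.7%) lay above and 2 (8.33%) below. lifrb, a leukaemia inhibitory factor receptor that pairs with gp130, had 23.4, 12.8 and 22.1 CPM in the CA-Stat3 libraries, against 11.8 and 10.8 CPM in the WT-Stat3 libraries (0.78 ± 0.35). il6st, which encodes gp130, had 266, 234 and 299 CPM in the CA-Stat3 libraries, against 223 and 277 CPM in the WT-Stat3 libraries, and the groups overlapped. ghra, a growth hormone receptor, lay below, with 2.59, 1.28 and 0.74 CPM in the CA-Stat3 libraries, against 6.34 and 4.53 CPM in the WT-Stat3 libraries (-1.78 ± 0.56, unadjusted p = 0.00592).

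Of 13 genes of Janus kinases and STAT factors, 2 lay above and 4 below. JAK1 had 287, 209 and 248 CPM in the CA-Stat3 libraries, against 204 and 196 CPM in the WT-Stat3 libraries (0.31 ± 0.23). stat5b, a STAT factor of growth hormone signalling, had 39.4, 30.1 and 40.0 CPM in the CA-Stat3 libraries, against 49.4 and 52.3 CPM in the WT-Stat3 libraries (-0.47 ± 0.21). Of 23 inhibitors of the pathway, 1 lay above, SOCS3, and 4 (17.4%) below, among them socs5a with 14.7, 25.2 and 20.6 CPM in the CA-Stat3 libraries, against 29.9 and 36.6 CPM in the WT-Stat3 libraries (-0.72 ± 0.26).

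**Figure D3:**
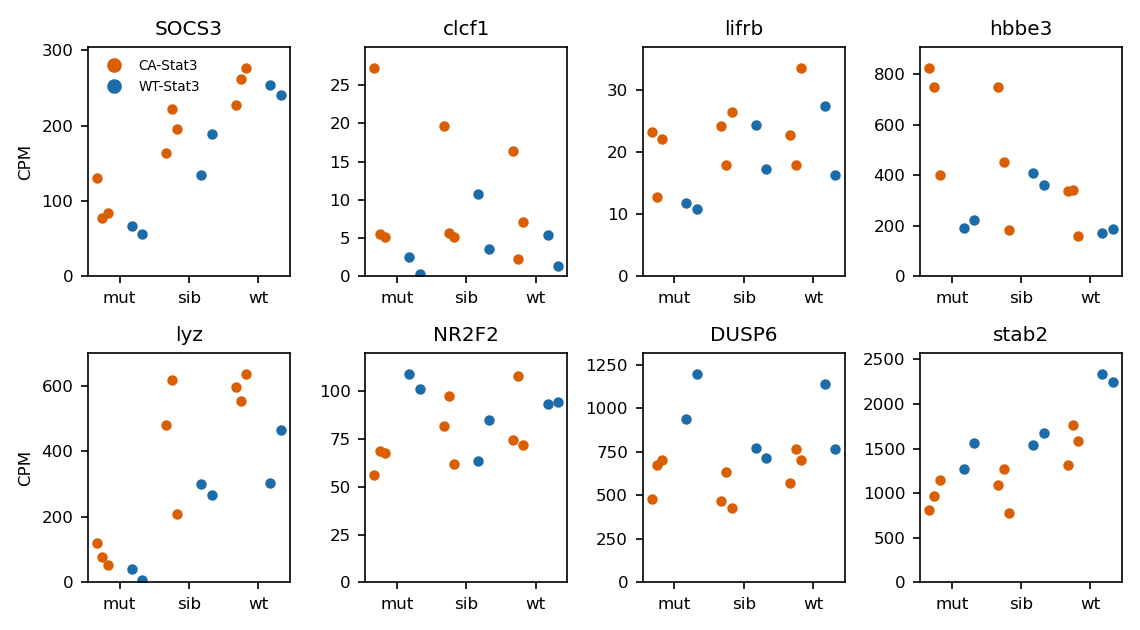
CPM of 8 genes in all 15 libraries: each panel is a gene, points are libraries, orange for CA-Stat3 and blue for WT-Stat3, and the x axis gives the genotype (mut, sib, wt). In the mutants CA-Stat3 lies above WT-Stat3 for SOCS3, clcf1, lifrb, hbbe3 and lyz and below it for NR2F2, DUSP6 and stab2; SOCS3 is the gene ENSDARG00000026611.

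Blood cell markers were placed differently in the WT-Stat3 libraries, erythroid genes lower in replicate 1 and myeloid genes lower in replicate 2. In bulk RNA, fewer cells of a type and less RNA per cell cannot be told apart. Of 35 erythroid genes, 6 (17.1%) lay above and 0 below. Their median log2 fold change was 0.18, beside 0.09 in siblings and 0.54 in wildtypes. The embryonic globin hbbe3 had 824, 747 and 401 CPM in the CA-Stat3 libraries, against 191 and 224 CPM in the WT-Stat3 libraries (1.66 ± 0.45, unadjusted p = 0.00198, edgeR adjusted p = 0.375, DESeq2 adjusted p = 0.0339). hbae3, an embryonic alpha globin, had 1035, 983 and 459 CPM in the CA-Stat3 libraries, against 286 and 315 CPM in the WT-Stat3 libraries (1.46 ± 0.49). For both, the lowest CA-Stat3 library was replicate 3, as it was also in siblings and in wildtypes. In siblings hbbe3 had 750, 453 and 184.5 CPM with CA-Stat3, against 407 and 363 CPM with WT-Stat3. In wildtypes it had 338, 341.5 and 161 CPM, against 173 and 189 CPM, and in both genotypes the constructs overlapped. The haem synthesis enzyme alas2 had 269, 259 and 122 CPM in the CA-Stat3 libraries, against 106 and 284 CPM in the WT-Stat3 libraries, with no separation. The summed erythroid level was 5570, 5560 and 3290 CPM in the CA-Stat3 libraries, against 2770 and 4450 CPM in the WT-Stat3 libraries. WT-Stat3 replicate 1 lay below all CA-Stat3 libraries for 25 of the 35 genes (24% of all genes tested). Replicate 2 did so for 7 (38.3% of all genes tested) and lay above them for 11 (29.7% of all genes tested).

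Of 25 neutrophil genes, 7 (28.0%) lay above and 0 below, with a median log2 fold change of 0.52. It was 0.36 against WT-Stat3 replicate 1 only, 1.24 against replicate 2 only and 0.31 without CA-Stat3 replicate 1. In siblings and wildtypes the median of this list was 0.32 and 0.36, so the higher levels were not particular to mutants. lyz, the lysozyme of zebrafish myeloid cells, had 120, 76.9 and 53.8 CPM in the CA-Stat3 libraries, against 41.7 and 6.27 CPM in the WT-Stat3 libraries (1.76 ± 0.55, unadjusted p = 0.00518). srgn, the granule proteoglycan serglycin, had 116, 116 and 94.9 CPM in the CA-Stat3 libraries, against 75.6 and 32.4 CPM in the WT-Stat3 libraries (0.99 ± 0.34, DESeq2 adjusted p = 0.0438). Both were lowest in WT-Stat3 replicate 2. npsn, a neutrophil-specific protease, had 84.9, 30.3 and 38.1 CPM in the CA-Stat3 libraries, against 31.9 and 3.83 CPM in the WT-Stat3 libraries, and overlapped.

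Of 30 macrophage genes, 7 (23.3%) lay above and 2 below, with a median of 0.51. It was -0.03 against WT-Stat3 replicate 1 only, 1.99 against replicate 2 only and 0.24 without CA-Stat3 replicate 1. In siblings and wildtypes the macrophage median was 0.44 and 0.33, again in the same direction. fcer1gl, by its name related to the Fc receptor gamma chain, had 8.94, 8.76 and 7.37 CPM in the CA-Stat3 libraries, against 2.49 and 1.39 CPM in the WT-Stat3 libraries (2.04 ± 0.47, unadjusted p = 0.000511). csf1ra, the macrophage growth factor receptor, had 13.4, 26.5 and 15.5 CPM in the CA-Stat3 libraries, against 17.7 and 7.32 CPM in the WT-Stat3 libraries, and overlapped. Summed macrophage levels were 574, 409 and 383 CPM in the CA-Stat3 libraries, against 477 and 181 CPM in the WT-Stat3 libraries. Of 38 interferon and innate immune genes, 11 (28.9%) lay above and 2 (5.26%) below, with a median of 0.68. It was 0.27 without CA-Stat3 replicate 1, and 0.48 and 1.16 against WT-Stat3 replicates 1 and 2 only. IRF8, a transcription factor of macrophages, had 2.45, 3.21 and 5.53 CPM in the CA-Stat3 libraries, against 1.59 and 0.35 CPM in the WT-Stat3 libraries (1.78 ± 0.64), and isg15, an interferon-induced ubiquitin-like protein, overlapped.

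Blood stem cell and haemogenic endothelium genes did not separate the constructs. Of 35 tested, 1 (2.86%) lay above and 3 (8.57%) below, with a median of 0.03. RUNX1, the factor needed for blood stem cells to emerge, had 8.79, 1.92 and 3.69 CPM in the CA-Stat3 libraries, against 2.94 and 5.58 CPM in the WT-Stat3 libraries. MYB, expressed in blood progenitors, had 33.7, 54.3 and 52.7 CPM in the CA-Stat3 libraries, against 51.2 and 37.3 CPM in the WT-Stat3 libraries. gata2b and gfi1aa, expressed in haemogenic endothelium, also overlapped, both at levels of at most 5.48 CPM in every mutant library. The gene that lay above was hoxa9b, a homeobox gene, with 3.17, 2.99 and 3.13 CPM in the CA-Stat3 libraries, against 0.68 and 0.70 CPM in the WT-Stat3 libraries (2.14 ± 0.73, unadjusted p = 0.00903).

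Endothelial markers were abundant in all 5 libraries. The sorting marker kdrl, a receptor for vascular endothelial growth factor, had 458, 829 and 884 CPM in the CA-Stat3 libraries, against 793 and 864 CPM in the WT-Stat3 libraries (-0.20 ± 0.27), with CA-Stat3 replicate 1 lowest. Of 40 pan-endothelial genes, 0 lay above and 3 (7.50%) below, with a median of -0.12, and -0.02 without CA-Stat3 replicate 1. tek, the angiopoietin receptor, was one of these, with 49.3, 70.31 and 80.5 CPM in the CA-Stat3 libraries, against 95.1 and 101 CPM in the WT-Stat3 libraries (-0.56 ± 0.23). cdh5, FLI1 and TIE1 overlapped. In siblings and wildtypes the pan-endothelial median was -0.46 and -0.40, so the lower levels were not particular to mutants.

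Arterial and Notch genes leaned to lower levels in CA-Stat3: 12 of 38 (31.6%) lay below and 2 (5.26%) above, with a median of -0.29. Without CA-Stat3 replicate 1, the library in which arterial, venous and pan-endothelial genes were all lowest among the mutants, the median was -0.17. Neither edgeR nor DESeq2 called one, and by edgeR 7 had an unadjusted p under 0.05 and a lower level. NOTCH1 (ENSDARG00000103554), a receptor that drives arterial fate, had 241, 330 and 334 CPM in the CA-Stat3 libraries, against 395 and 509 CPM in the WT-Stat3 libraries (-0.58 ± 0.19, unadjusted p = 0.00833). One of the 2 genes for RBPJ (ENSDARG00000052091), the DNA-binding partner of Notch, had 8.07, 6.63 and 6.63 CPM in the CA-Stat3 libraries, against 11.8 and 12.6 CPM in the WT-Stat3 libraries (-0.76 ± 0.24, unadjusted p = 0.00489). The WT-Stat3 values of RBPJ were close together. dll4, the arterial Notch ligand, had 54.5, 85.1 and 79.2 CPM in the CA-Stat3 libraries, against 99.2 and 89.6 CPM in the WT-Stat3 libraries (-0.38 ± 0.32), so it also lay below. HES6 went the other way, with 5.33, 1.71 and 2.21 CPM in the CA-Stat3 libraries, against 0.68 and 0.00 CPM in the WT-Stat3 libraries. Its pooled counts were 57 against 3, a ratio of 8.12 after scaling (95% exact counting interval 2.64 to 40.5). Against WT-Stat3 replicate 1 only, the list's median was -0.19, and 17 of its 38 genes lay below, against 24.7% of all genes tested. In siblings and wildtypes the list's median was -0.05 and -0.14, and its median interaction was -0.10.

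Among 22 venous and lymphatic genes, 5 (22.7%) lay below and 1 above. Their median log2 fold change was -0.13, beside -0.42 in siblings and -0.34 in wildtypes, so the lower levels were not particular to mutants. NR2F2, the transcription factor of venous fate, had 56.4, 68.8 and 67.6 CPM in the CA-Stat3 libraries, against 109 and 101 CPM in the WT-Stat3 libraries (-0.71 ± 0.22, unadjusted p = 0.00526). stab2, a scavenger receptor of venous endothelium, had 809, 965 and 1153 CPM in the CA-Stat3 libraries, against 1266 and 1561 CPM in the WT-Stat3 libraries (-0.53 ± 0.21, unadjusted p = 0.0203). In both genes the WT-Stat3 libraries were on the same side of every CA-Stat3 library. The gene ctsla went the other way, with 430, 414 and 431 CPM in the CA-Stat3 libraries, against 313 and 208 CPM in the WT-Stat3 libraries. lyve1b and FLT4 overlapped between the constructs. In siblings and wildtypes stab2 had log2 fold changes of -0.62 and -0.56, and its interaction was 0.05. NR2F2 had 0.12 and -0.14 there, and its interaction was -0.70 (unadjusted p = 0.0202; no interaction was called).

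Of 55 immediate-early genes, 12 (21.8%) lay below and 5 (9.09%) above, with a median log2 fold change of -0.12. In siblings and wildtypes the median of this list was -0.22 and -0.29, so the lower levels were not particular to mutants. DUSP6, a phosphatase that ERK signalling induces, had 481, 674 and 703 CPM in the CA-Stat3 libraries, against 941 and 1198 CPM in the WT-Stat3 libraries (-0.79 ± 0.23, unadjusted p = 0.00297, DESeq2 adjusted p = 0.0225). egr1, an early-response transcription factor, had 96.7, 139 and 67.3 CPM in the CA-Stat3 libraries, against 203 and 209 CPM in the WT-Stat3 libraries (-1.03 ± 0.46). The WT-Stat3 libraries agreed closely for egr1. FOS had 155, 178 and 181 CPM in the CA-Stat3 libraries, against 311 and 216 CPM in the WT-Stat3 libraries (-0.62 ± 0.34). NPAS4 went the other way at a very low level, with 13 counts over the CA-Stat3 libraries and 0 over the WT-Stat3 libraries.

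Of 66 genes of the integrated stress and unfolded protein response, 13 (19.7%) lay above and 3 (4.55%) below. DDIT3, a transcription factor of this response, had 47.0, 44.9 and 37.8 CPM in the CA-Stat3 libraries, against 26.5 and 4.88 CPM in the WT-Stat3 libraries (1.40 ± 0.48, unadjusted p = 0.00982). Its fold change rested much on replicate 2 of WT-Stat3, at 0.72 against replicate 1 only and 3.16 against replicate 2 only. SLC7A3 (ENSDARG00000061566), a cationic amino acid transporter, lay below, with 30.3, 37.6 and 32.6 CPM in the CA-Stat3 libraries, against 52.1 and 55.1 CPM in the WT-Stat3 libraries (-0.68 ± 0.22). Of 39 apoptosis genes, 12 (30.8%) lay above and 4 (10.3%) below. cycsb, a cytochrome c gene, had 143, 196 and 134 CPM in the CA-Stat3 libraries, against 121 and 56.5 CPM in the WT-Stat3 libraries (0.82 ± 0.25). bcl2a, a gene of the anti-apoptotic BCL2 family, had 8.07, 7.91 and 6.82 CPM in the CA-Stat3 libraries, against 11.6 and 22.3 CPM in the WT-Stat3 libraries (-1.13 ± 0.29).

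Cell cycle genes were near the background, with 13 of 90 (14.4%) above and 12 (13.3%) below. CCNE1, a cyclin of the entry into S phase, had 4.47, 4.27 and 3.13 CPM in the CA-Stat3 libraries, against 8.83 and 9.76 CPM in the WT-Stat3 libraries (-1.22 ± 0.37, unadjusted p = 0.00441). HMGB2, a chromatin protein of dividing cells, had 454, 344 and 392 CPM in the CA-Stat3 libraries, against 340 and 144 CPM in the WT-Stat3 libraries (0.71 ± 0.26). hmgb2b had 423, 380 and 330 CPM in the CA-Stat3 libraries, against 283.5 and 88.5 CPM in the WT-Stat3 libraries (DESeq2 log2 fold change 1.01, DESeq2 adjusted p = 0.0315, not called by edgeR). Its WT-Stat3 replicate 2 was by far the lowest library. Heat shock genes had 4 of 38 (10.5%) above and 1 below, and the 13 mitochondrially encoded genes 1 above and 0 below. The median log2 fold change of the mitochondrially encoded genes was 0.01 against WT-Stat3 replicate 1 only and 0.86 against replicate 2 only. Replicate 2 lay below all CA-Stat3 libraries for 12 of these 13 genes (38.3% of all genes tested).

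Markers of tissues that a kdrl sort should leave out were measured as well. Of 46 muscle and heart genes, 12 (26.1%) lay above and 1 (2.17%) below. Their median log2 fold change was 0.56, and it was larger in siblings (0.90) and wildtypes (1.08). Their summed level was 2480, 2240 and 1750 CPM in the CA-Stat3 libraries, against 2160 and 1190 CPM in the WT-Stat3 libraries. Epidermal genes had 5 of 42 (11.9%) above and 0 below, with sums of 2930, 3320 and 2940 CPM in the CA-Stat3 libraries, against 3250 and 1820 CPM in the WT-Stat3 libraries. Neural genes had 5 of 45 (11.1%) on each side, with sums of 802, 447 and 537 CPM in the CA-Stat3 libraries, against 588 and 431 CPM in the WT-Stat3 libraries. In each of these sums WT-Stat3 replicate 2 was the lowest library and replicate 1 lay within the CA-Stat3 range. Mesenchyme had 4 of 41 genes on each side, lens and retina 2 of 24 on each side, and the list of hatching gland, gut, liver and kidney 1 of 24 above and 0 below. Acute phase and complement genes, some of them Stat3 targets in mammals, had 2 of 15 above and 1 below. Their median log2 fold change was -0.90, and its sign depended on the library, at -0.90 against WT-Stat3 replicate 1 only and 1.75 against replicate 2 only. Of 70 vascular growth factor and angiogenesis genes, 13 (18.6%) lay below and 4 (5.71%) above. Whether other cell types had a part in the differences named above was not tested.

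**Figure D4:**
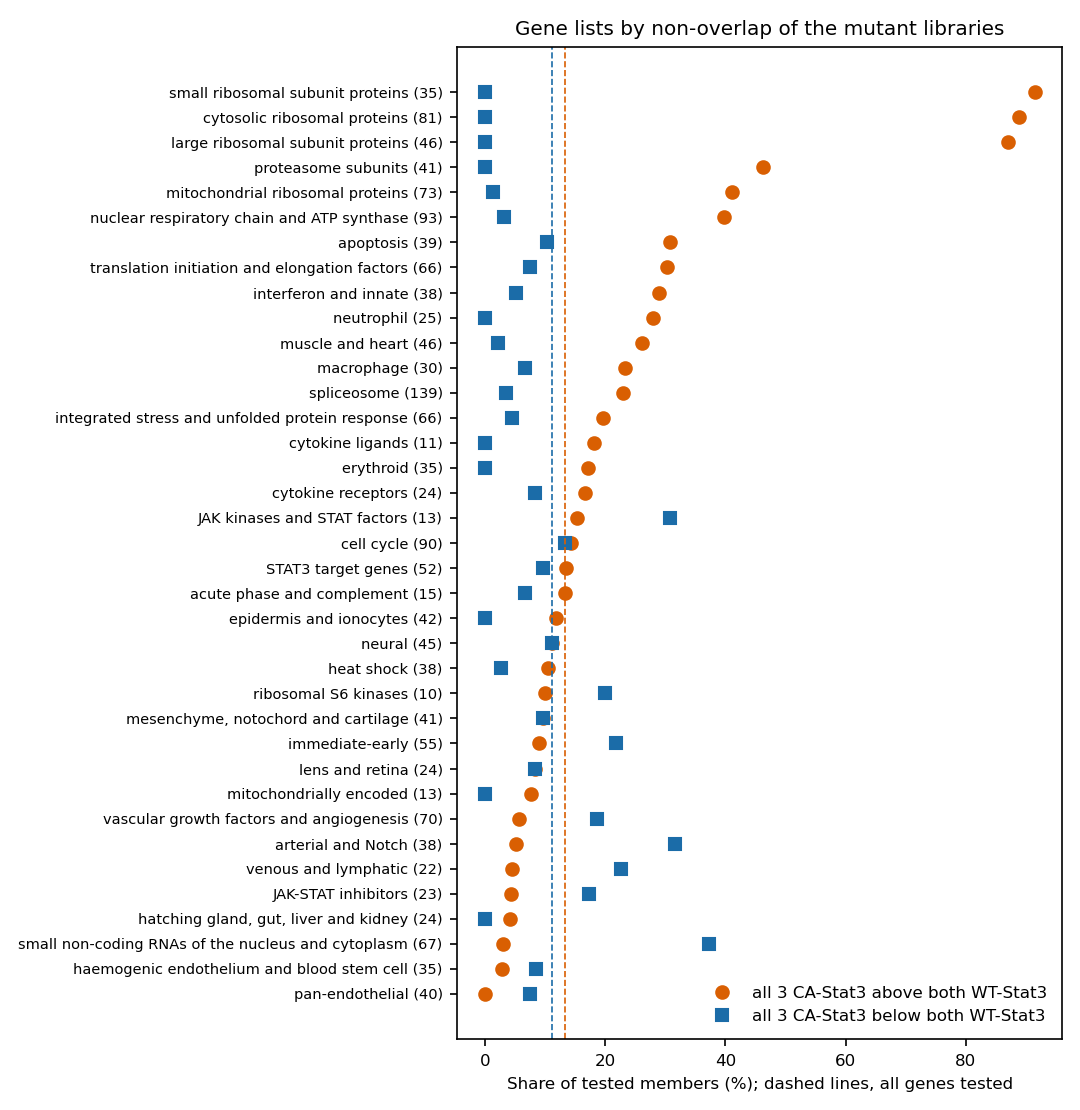
Share of tested members of each gene list that lay above (orange circles) or below (blue squares) in mutant CA-Stat3 against mutant WT-Stat3 libraries: the x axis is percent of members, the number tested is in brackets, and dashed lines give all genes tested (13.4% above, 11.1% below). The broader ribosomal list is not drawn. Cytosolic ribosomal proteins stand at 88.9% above and small non-coding RNAs at 37.3% below, the arterial and Notch list is at 31.6% below, and the STAT3 target list is at 13.5% above.

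The genes with the smallest p in each direction, among those with non-overlapping groups and an average log2 CPM of at least 1, were 12 higher and 12 lower, and all had an edgeR adjusted p of 0.368. Besides RPS28, RPS18 and fcer1gl, the 12 higher genes were SDK1, znf1177, PFDN6, ighm, KXD1, nop16, LMX1B, STMN1 and FKBP3. SDK1 (ENSDARG00000078866), which encodes a cell adhesion molecule of the immunoglobulin superfamily, had 12.3, 10.7 and 11.98 CPM in the CA-Stat3 libraries, against 4.08 and 4.88 CPM in the WT-Stat3 libraries (1.39 ± 0.27, unadjusted p = 7.73e-05). PFDN6, a subunit of the prefoldin chaperone, had 26.8, 32.7 and 31.1 CPM in the CA-Stat3 libraries, against 13.6 and 12.2 CPM in the WT-Stat3 libraries (1.22 ± 0.24, unadjusted p = 0.000119). For these genes the WT-Stat3 libraries lay close together, so the log2 fold change stayed near its size against either one, at 1.53 and 1.27 for SDK1 and 1.16 and 1.32 for PFDN6 against replicates 1 and 2 only. nop16, a nucleolar protein of large-subunit assembly, had 18.2, 18.4 and 28.7 CPM in the CA-Stat3 libraries, against 8.61 and 4.18 CPM in the WT-Stat3 libraries (1.72 ± 0.37). FKBP3, a nuclear prolyl isomerase, had 14.9, 12.6 and 9.58 CPM in the CA-Stat3 libraries, against 5.66 and 2.79 CPM in the WT-Stat3 libraries (1.49 ± 0.35).

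Several of the 12 higher genes were near 0 in the WT-Stat3 libraries. The zinc finger gene znf1177 had 4.47, 4.92 and 5.16 CPM in the CA-Stat3 libraries, against 0.68 and 0.35 CPM in the WT-Stat3 libraries (3.12 ± 0.61). KXD1, a subunit of the lysosome-positioning complex BORC, had 66 counts over the CA-Stat3 libraries and 2 over the WT-Stat3 libraries, a ratio of 14.1 after scaling (95% exact counting interval 3.75 to 119). The immunoglobulin heavy chain gene ighm had 54 counts over the CA-Stat3 libraries and 1 over the WT-Stat3 libraries, a ratio of 23.1 (3.97 to 928). The width of these intervals, which cover counting error only, leaves the size of both differences poorly known. LMX1B (ENSDARG00000068365), a homeobox factor, had 4.04, 4.06 and 3.32 CPM in the CA-Stat3 libraries, against 0.91 and 0.35 CPM in the WT-Stat3 libraries. STMN1 (ENSDARG00000033655), a tubulin-binding protein abundant in neurons, had 13.4, 9.40 and 5.53 CPM in the CA-Stat3 libraries, against 2.27 and 0.00 CPM in the WT-Stat3 libraries.

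Besides rn7sk, rpph1, rmrp, U2 and bcl2a, the 12 lower genes were IPMK, e2f2, DVL3, PDE8B, fancb, PCNX1 and MIGA2. IPMK, an inositol polyphosphate kinase, had 16.0, 18.2 and 16.0 CPM in the CA-Stat3 libraries, against 30.1 and 43.9 CPM in the WT-Stat3 libraries (-1.14 ± 0.24, unadjusted p = 0.000192). e2f2, an E2F factor of the cell cycle, had 4.90, 3.42 and 5.90 CPM in the CA-Stat3 libraries, against 11.1 and 13.9 CPM in the WT-Stat3 libraries (-1.38 ± 0.33). For e2f2 the log2 fold change was -1.20 against replicate 1 only and -1.53 against replicate 2 only. DVL3 (ENSDARG00000015707), which relays Wnt signals, had 24.5, 29.3 and 27.1 CPM in the CA-Stat3 libraries, against 39.2 and 57.2 CPM in the WT-Stat3 libraries (-0.83 ± 0.21). PDE8B, a cyclic AMP phosphodiesterase, had 5.04, 7.05 and 4.79 CPM in the CA-Stat3 libraries, against 14.7 and 21.3 CPM in the WT-Stat3 libraries (-1.67 ± 0.43). The Fanconi anaemia gene fancb had 3.46, 2.78 and 2.95 CPM in the CA-Stat3 libraries, against 5.44 and 11.9 CPM in the WT-Stat3 libraries (-1.46 ± 0.37). In all of these WT-Stat3 replicate 2 was the higher of its pair. PCNX1 and MIGA2 had log2 fold changes of -0.74 ± 0.19 and -1.17 ± 0.30.

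**Figure D5:**
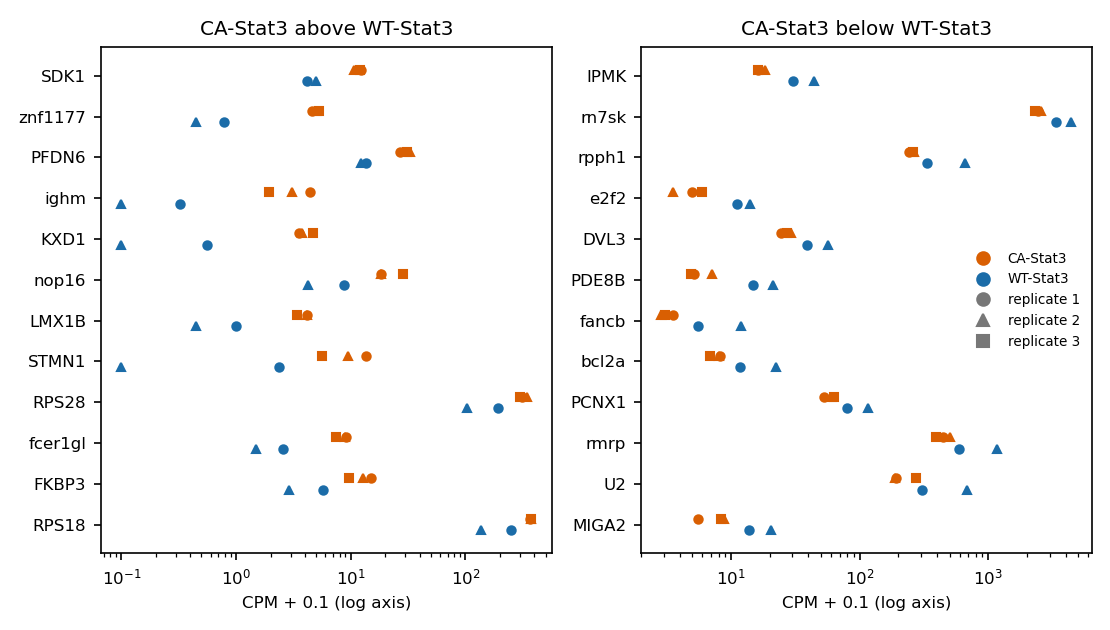
Levels of the 12 genes with the smallest p that lay above and the 12 that lay below: the x axis is CPM + 0.1 on a log axis, rows are genes, orange points are the 3 mutant CA-Stat3 libraries and blue points the 2 mutant WT-Stat3 libraries, with the replicate as the marker shape. For SDK1 and PFDN6 the WT-Stat3 points lie close together, while for most of the lower genes WT-Stat3 replicate 2 is farther from the CA-Stat3 points.

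The genes that differed most between the 2 WT-Stat3 libraries, at an average log2 CPM of at least 3, mark how far replicate 2 stood from replicate 1. The slow muscle myosin smyhc1 had 29.8, 92.5 and 58.4 CPM in the CA-Stat3 libraries, against 122 and 2.44 CPM in the WT-Stat3 libraries. The muscle creatine kinase gene ckmb had 35.6, 20.1 and 12.9 CPM in the CA-Stat3 libraries, against 16.3 and 0.35 CPM in the WT-Stat3 libraries. The apolipoprotein gene apobb.1 had 13.1, 3.21 and 7.55 CPM in the CA-Stat3 libraries, against 52.8 and 1.39 CPM in the WT-Stat3 libraries. In each, replicate 1 was within or above the CA-Stat3 range and replicate 2 below it; tuba2 and SNAPC5 completed the 5 lowest. RHAG, an ammonia channel of red cells, was among the 5 highest in replicate 2, with 46.0, 40.82 and 23.2 CPM in the CA-Stat3 libraries, against 10.2 and 45.3 CPM in the WT-Stat3 libraries. The others were gtf3c2, ripor3, serpinf1 and a row of the signal recognition particle RNA family. Over all 18020 genes, WT-Stat3 replicate 1 lay above the CA-Stat3 range and replicate 2 below it for 1292 (7.17%), and the reverse held for 959 (5.32%). Both lay within that range for 3657 genes (20.3%).

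The difference of the construct effect between mutants and non-mutants was tested over all genes. No gene was called by edgeR for the interaction with siblings and wildtypes together, where 1242 genes (6.89%) had an unadjusted p under 0.05 and DESeq2 called 1, ENSDARG00000104308. Within siblings and within wildtypes edgeR also called 0 genes, with 753 and 725 at an unadjusted p under 0.05, and DESeq2 called 1 and 3. Without WT-Stat3 replicate 1, 210 interactions were called, so this count too rested on which mutant WT-Stat3 library was kept. SOCS3 (ENSDARG00000026611) had log2 fold changes of 0.65 in mutants, 0.26 in siblings and 0.05 in wildtypes, with an interaction of 0.49 (unadjusted p = 0.0997). Its level in mutants, 56.5 to 130 CPM over the 5 libraries, lay below that in the 10 non-mutant libraries, where the lowest was 134.7 CPM.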

How the data were processed

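The deposited table holds raw counts per gene for all 15 libraries, which the authors made with Trim Galore, STAR 2.4.2a, Picard and featureCounts on GRCz10, per the submitters' processing notes. Strand setting and handling of multi-mapping reads: not given in the sources used here. Of 32105 genes, 18020 passed edgeR's filterByExpr (minimum count 10) and were tested. Counts were scaled by TMM and fitted with edgeR 4.0.16 (R 4.3.3; quasi-likelihood test, Benjamini-Hochberg adjustment, threshold 0.05) with 1 coefficient for each of 6 groups over all 15 libraries. DESeq2 1.42.0 and limma 3.58.1 voom were alternatives. The fits were tested on simulated data. Gene symbols matched 26269 IDs; where genes share a symbol the Ensembl ID is given, and genome coordinates were not used because the gene table available is of another assembly. As edgeR called no gene, named genes are the 12 with the smallest p in each direction (groups not overlapping, average log2 CPM of at least 1), up to 3 per list, and the best-known members of lists. The members and lists were chosen with earlier results of these data known. Values of some single genes are not reported here.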

Additional observations from a re-analysis of the deposited data

How the results depend on the processing

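The count of genes called between CA-Stat3 and WT-Stat3 in mutants, 0 by edgeR, depended on the libraries, the filter and the tool. Leaving out each of the 15 libraries in turn gave 0 to 536 calls (0 to 412 higher, 0 to 124 lower), above 0 only without mutant WT-Stat3 replicate 1. Without a filter on low counts 110 genes were called (82 higher, 28 lower), and DESeq2 called 63 (48 higher, 15 lower). Of these 110 genes, 0 were genes that the main filter removes. The prior degrees of freedom of the fit, the weight given to the spread shared over genes, were 7.57 with the filter and 93.5 without. The cause was not tested. RLE size factors, a stricter filter, thinning, leaving out the 3 most abundant rows, the group's own libraries only and limma voom gave 0. DESeq2 was fitted to all 15 libraries only, so the dependence of its calls on a single library was not tested. The labels tie no replicate number to a clutch or day. Deviations of same-numbered libraries correlated at -0.148 to 0.336 (median 0.083, 9 of 33 pairs over 0.1), and those of differently numbered libraries at -0.392 to 0.392 (median -0.028, 5 of 60 over 0.1). In a group of 2 libraries the deviations are mirror images of each other, so these pairs are not separate observations. Not every library correlated best with one of its own number, so the libraries were treated as unpaired, though some sharing by number is not excluded. With the replicate number as a block 7 genes were called, all 7 higher: hbbe3 (edgeR adjusted p = 0.00897), hbae3 (0.00984), tspo and ENSDARG00000088449 (each 0.0335), and clcf1, HBE1 and RPL29 (each 0.0428). The block assumes that same-numbered libraries share a level. Mutant WT-Stat3 replicate 1 correlated at -0.148 to 0.083 with the other libraries numbered 1, so that assumption is uncertain for these calls.

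In wildtypes the count was 0 to 1 over the left-out libraries, 13 without a filter and 3 by DESeq2, and in siblings 8 without a filter and 1 by DESeq2. The interaction with wildtypes gave 0 to 59, 8 without a filter and 1 by DESeq2. That with siblings gave 0 to 88, and 10 without a filter. That with both gave 0 to 210, 19 without a filter and 1 by DESeq2. The block gave no further calls. The median log2 fold change of the cytosolic ribosomal protein genes was 0.41 to 0.86 over the left-out libraries. Over the left-out libraries the log2 fold change of STAT3 was -0.52 to 0.12, that of SF3B1 -0.19 to 0.03 and that of kdrl -0.36 to 0.04. STAT3 and SF3B1 were above 0 without mutant WT-Stat3 replicate 2, SF3B1 also without CA-Stat3 replicate 3 (0.02), and kdrl without CA-Stat3 replicate 1.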
